A study of Homo sapiens with 20 samples.

Results

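Fibrinogen beta chain (FGB) transcripts marked a large population of GPX2 KO cells at day 21 of differentiation towards stem cell-derived β cells. Cells were taken as FGB-positive when they carried at least 3 FGB UMIs (unique molecular identifiers, each standing for 1 captured transcript) among barcodes with 1500 to 5000 detected genes and under 15% mitochondrial UMIs. By this rule 1721 of 11739 kept cells were FGB-positive. They comprised 1717 of 5611 KO cells (30.6%, exact binomial interval 29.4 to 31.8%) and 4 of 6128 WT cells (0.0653%, 0.0178 to 0.167%). The intervals given here and below are at 95% and cover counting error only. FGB was the basis of the choice, so FGB levels are a description, and so are all other day 21 differences between the chosen cells and the rest.

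All samples derive from HUES8, an established human embryonic stem cell line, or from GPX2 KO lines made in HUES8-iCas9, a derivative with doxycycline-inducible Cas9, using guide RNAs that remove both exons of GPX2, the gene of an antioxidant glutathione peroxidase of the gut. KO lines are clonal, and the labels of the day 21 sample do not say which clone was used. Day 21 was profiled by droplet single-cell RNA-seq in untreated WT and GPX2 KO cells, with 1 library per genotype, so no difference between genotypes or cell groups at day 21 has a replicate check and none was tested. Cells that the rule did not use came from 1 WT and 1 KO single-cell library at day 8 of the β-cell protocol, from 2 WT and 2 KO bulk RNA-seq libraries at day 6, from bulk RNA-seq at day 8 of spontaneous differentiation of definitive endoderm (WT, WT given H2O2, KO and KO given Se, 2 libraries each), and from ATAC-seq peaks of WT and KO at that last stage. The day 6 library titles carry the mark of the spontaneous protocol whereas the methods place them in the pancreatic one, so their protocol is not certain.

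Fibrinogen is the soluble plasma protein that thrombin turns into the fibrin clot. It is built from the FGA, FGB and FGG chains, whose genes lie side by side and are transcribed mainly in hepatocytes under factors such as CEBP proteins and, in inflammation, STAT3. Endoderm that buds from the foregut towards the liver, and the endoderm of the yolk sac, share a programme of secreted proteins (AFP, APOA1, TTR, SERPINA1 and fibrinogen), while the hindgut and intestine are set by CDX2, so the markers below separate these fates only in part.

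The chromosome 4 sequences that precede the fibrinogen and AFP genes are shown because all 4 genes are among those that set the FGB-positive cells apart. They are the 250 bases before each transcription start from RefSeq (GRCh38.p14), written 5′ to 3′ on the gene's own strand, with capitals marking the letters AGATAA or their reverse complement TTATCT, a core of the sites bound by GATA factors.
FGB (chr4:154562730-154562979, plus strand): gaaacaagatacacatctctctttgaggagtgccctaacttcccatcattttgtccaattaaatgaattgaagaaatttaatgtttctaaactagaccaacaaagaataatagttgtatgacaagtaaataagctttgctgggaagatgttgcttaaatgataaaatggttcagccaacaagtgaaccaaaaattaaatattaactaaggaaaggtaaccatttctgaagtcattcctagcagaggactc
FGA (chr4:154590743-154590992, minus strand): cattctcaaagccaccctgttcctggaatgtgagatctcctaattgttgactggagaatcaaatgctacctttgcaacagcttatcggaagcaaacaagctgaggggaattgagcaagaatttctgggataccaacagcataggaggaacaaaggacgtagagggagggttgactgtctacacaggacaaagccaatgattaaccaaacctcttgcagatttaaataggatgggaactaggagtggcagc
FGG (chr4:154612657-154612906, minus strand): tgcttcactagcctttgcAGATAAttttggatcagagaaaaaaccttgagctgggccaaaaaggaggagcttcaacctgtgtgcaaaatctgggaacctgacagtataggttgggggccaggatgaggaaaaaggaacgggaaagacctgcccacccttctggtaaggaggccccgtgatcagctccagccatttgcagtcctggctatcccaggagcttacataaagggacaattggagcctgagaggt
AFP (chr4:73435971-73436220, plus strand): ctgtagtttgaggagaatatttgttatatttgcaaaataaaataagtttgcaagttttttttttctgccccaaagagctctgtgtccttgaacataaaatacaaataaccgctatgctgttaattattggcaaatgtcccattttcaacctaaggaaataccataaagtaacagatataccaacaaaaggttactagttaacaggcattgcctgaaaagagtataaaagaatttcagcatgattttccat
Of the 4 windows only that of FGG held these letters, with their first base at -232 from the start. Searched on both strands, they stood in 9.19% of 34943 human promoters of this length. Of the 50 genes with the highest ratios in FGB-positive cells, 32 had a promoter, and 7 of the 32 (21.9%) held the letters. A gene was counted if any of its promoters held them, so its share and that of single promoters are not in like units. The letters TGTTTAC, a core of FOXA sites, were in none of the windows shown, in 2.98% of all promoters and in 2 of the 32 genes, counted likewise. A match is a description of the letters and not of binding.

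GPX2, the deleted gene, was low in every single-cell library. At day 21 it had 109 UMIs in 101 WT cells (2.94 CPM, the gene's summed UMIs scaled to a common library total) and 46 UMIs in 44 KO cells (0.987 CPM). Of the 46 KO UMIs, 31 were in FGB-positive cells, which gave 2.23 CPM against 0.459 CPM in the other KO cells, and the reason for any GPX2 reads in KO was not tested. The day 21 WT table holds 8911 barcodes and the unfiltered KO one, empty droplets included, 1285152. The 2 libraries shared 7 kept cell barcodes, of which 3 were FGB-positive KO cells. Scrublet called 45 FGB-positive cells doublets (2.62%) and 1.67% of the other KO cells, and no cell was removed on that basis. FGB-positive cells had a median of 7742 UMIs and 3372 genes, the other KO cells 8223 UMIs and 3500 genes. Median mitochondrial shares were 3.76% and 5.39%.

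FGB UMIs were concentrated in the chosen cells. KO cells held 23532 FGB UMIs, 97.3% of them in FGB-positive cells, and all WT cells together held 46. Within FGB-positive cells the quartiles were 6, 10 and 17 UMIs and the highest cell had 117, whereas the highest WT cell had 6. Of the 4 WT cells over the threshold, none carried an FGG or AFP UMI. There were 3415 KO cells without FGB, 315 with 1 UMI, 164 with 2, 138 with 3, 129 with 4 and 583 with 5 to 9. The counts thus ran through the threshold without a gap.

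**Figure D1:**
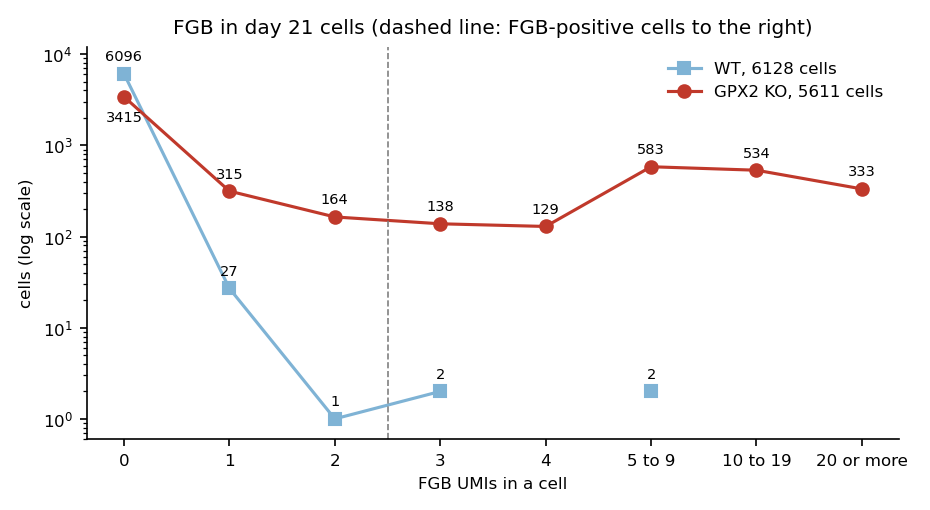
Number of kept day 21 cells (y axis, log scale) by the number of FGB UMIs in a cell (x axis) in the WT library (blue squares) and the GPX2 KO library (red circles). The dashed line is the threshold of 3 UMIs, with 4 WT and 1717 KO cells to its right.

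Cells just inside and just outside the threshold carried most of the accompanying genes at similar levels, AFP excepted. The 138 KO cells with 3 FGB UMIs had 434 CPM of FGG and the 164 cells with 2 had 340 CPM. APOA1 stood at 1477 and 1339 CPM and LGALS3, which encodes galectin-3, at 1198 and 887 CPM. AFP stood at 98.4 against 12.8 CPM. Cells with 20 or more FGB UMIs, 333 in number, reached 1310 CPM of AFP, 1302 CPM of FGG and 401 CPM of FGA.

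Free RNA in the droplets held liver transcripts too. In 1054202 KO droplets with under 100 UMIs, FGB stood at 336 CPM, FGG at 160 and AFP at 69.6, against 42900 CPM for INS. FGB was also counted in endocrine cells. Of 1714 KO cells with at least 10 UMIs of CHGA (the granule protein chromogranin A), 7.12% carried an FGB UMI. In these cells 2.28% carried 3 or more, at a median of 9130 UMIs. In KO cells with fewer CHGA UMIs the shares were 53.2% and 43.1% at a median of 7643 UMIs. With every cell thinned to 3000 UMIs, an FGB UMI was found in 3.74% and 46.4% of the same cells. The cells low in CHGA include 1678 of the FGB-positive cells, so their share over the threshold follows from the rule. The part of free RNA in the FGB counts was not tested.

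Seen against the other 3894 KO cells, the FGB-positive cells carried the other fibrinogen chains and fetal serum proteins at high levels, along with epithelial and endodermal genes that are not hepatic. A gene entered the comparison if it had at least 50 CPM and a UMI in at least 20% of the cells in the set where it was higher, and was counted as higher or lower past a 4-fold ratio of summed CPM. Of 4604 genes compared, 84 (1.82%) were at least 4-fold higher and 203 (4.41%) at least 4-fold lower in FGB-positive cells, and the median log2 ratio was 0.02. The 3 fibrinogen chains were all among the higher genes. FGG stood at 791 against 50.4 CPM, a ratio of 15.7 (14.9 to 16.5), and was found in 84.5% of FGB-positive cells and in 13.2% of the others. FGA stood at 171 against 11.8 CPM, a ratio of 14.4 (12.9 to 16.1), in 49.2% against 6.01% of cells. In WT cells FGG and FGA stood at 4.32 and 3.4 CPM.

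**Figure D2:**
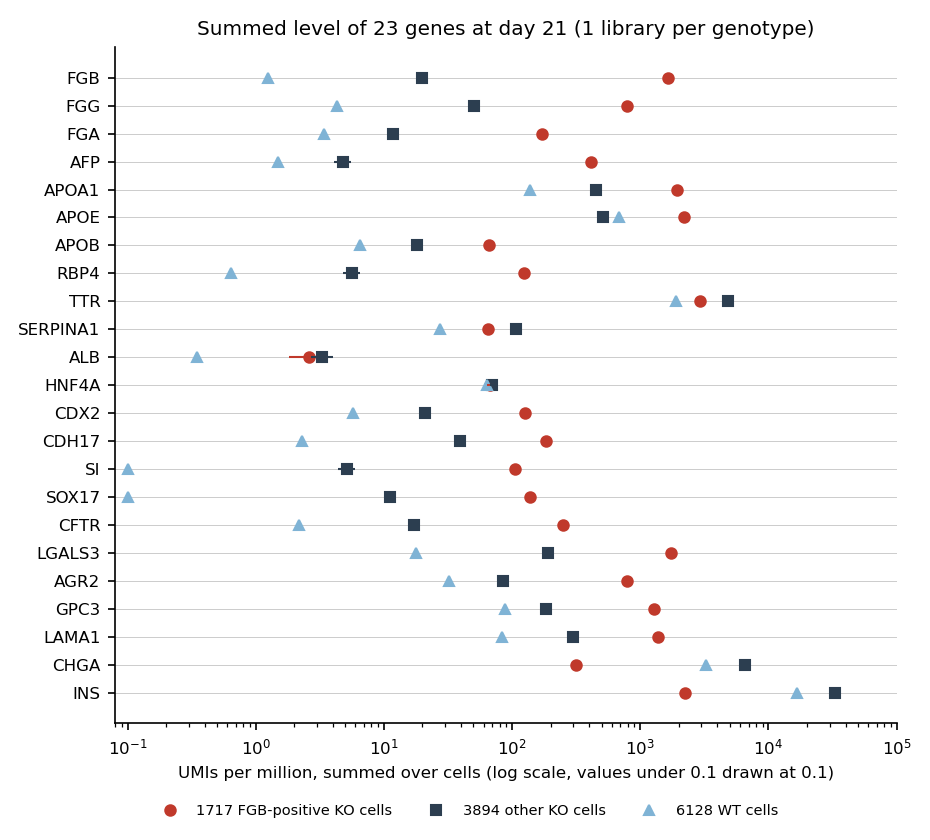
CPM of summed UMIs (x axis, log scale, values under 0.1 drawn at 0.1) of 23 genes in FGB-positive KO cells (red circles), other KO cells (dark squares) and WT cells (blue triangles) at day 21, with bars for 95% exact Poisson intervals in the KO sets. FGG, FGA, AFP and SOX17 lie more than 10-fold apart between the KO sets, HNF4A and ALB coincide, and SERPINA1, TTR, CHGA and INS lie to the left in FGB-positive cells.

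Plasma proteins were mixed. Of 22 genes of this list 17 were too low to compare, 1 was higher, none was lower, and the median log2 ratio over the 5 compared was 0.07. AFP, the fetal counterpart of albumin, was the higher one, at 414 against 4.77 CPM (ratio 86.7, 73.9 to 102). It was found in only 24.8% of FGB-positive cells. RBP4, the retinol carrier of plasma, had a ratio of 22.1 (124 against 5.6 CPM) but in 15.1% of cells, short of the share needed. TTR, which carries thyroxine and is also made by islet cells, stood at 2906 against 4798 CPM, and SERPINA1, the liver's main protease inhibitor, at 65.3 against 106 CPM (ratio 0.61, 0.57 to 0.66). VTN, the cell adhesion protein of plasma, stood at 272 against 139 CPM in 54.6% of FGB-positive cells, and AMBP, the precursor of a protease inhibitor, at 203 against 193 CPM in 40.8%, with 151 and 250 CPM in the droplets under 100 UMIs. ALB, the main product of the mature hepatocyte, was close to absent. It had 36 UMIs in 27 of the 1717 cells (2.59 CPM, against 3.30 in the other KO cells). By share of cells ALB was found in 1.57% of FGB-positive and 0.41% of other KO cells. Of the 108 ALB UMIs in other KO cells, 85 were in 2 cells. Of other members of the list, TF had 31 UMIs, HPX 21, AHSG 2 and HP 0.

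Apolipoproteins were the other secreted group with higher members. APOA1, the main protein of high-density lipoprotein, stood at 1942 against 449 CPM (ratio 4.32, 4.24 to 4.41) and was found in 99.0% of FGB-positive cells, 67.4% of other KO cells, and at 138 CPM in WT. APOE, the ligand that clears lipoprotein remnants, was higher at 2202 against 508 CPM. APOB, the scaffold of very-low-density lipoprotein, had a ratio of 3.62 and APOC1 one of 2.94, both within 4-fold. APOC3, an inhibitor of lipoprotein lipase, was lower, at 8.56 against 110 CPM, but had a ratio of 3.03 against other KO cells low in CHGA. Over the 6 members compared, 2 were higher, 1 was lower and the median log2 ratio was 1.70.

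Coagulation and complement genes were mostly too low to compare, 20 of 21. The protease precursor F2 (prothrombin) stood at 26.0 against 9.05 CPM, and F10, the only one compared, at 56.6 against 118 CPM, although F10 had a ratio of 2.24 (1.99 to 2.53) against other KO cells low in CHGA. None of the 25 mature hepatocyte enzymes and transporters in the table could be compared. CYP7A1, the rate-limiting enzyme of bile acid synthesis, and UGT1A1, which conjugates bilirubin, had no UMI, OTC of the urea cycle had 5 UMIs and CPS1 58. The exception in level was TDO2, which opens the tryptophan ring, at 45.7 against 4.47 CPM in 7.05% of cells. Acute phase genes were near the floor too, with no UMI of CRP or SAA1.

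Transcription factors of the hepatic list separated weakly, with 0 of 12 compared past 4-fold in either direction and a median log2 ratio of 0.39. HNF4A, which drives the hepatocyte programme and is also used in gut and islet, stood at similar levels (67.5 against 70.2 CPM, ratio 0.96, 0.89 to 1.04). The highest ratios were those of NR5A2 (3.62), FOXA1 (3.15) and TBX3 (3.06). PROX1, needed for hepatoblasts to leave the liver bud and also used in islets, had the lowest ratio among those compared, 0.30. The pioneer factor FOXA2 stood at 49.8 against 102 CPM. Against other KO cells low in CHGA, PROX1 had a ratio of 0.98 (0.85 to 1.13) and FOXA2 of 0.57. There NR5A2, FOXA1 and TBX3 had 2.02, 2.27 and 2.55.

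Of 7 intestinal genes compared 3 were higher and none was lower, with a median log2 ratio of 1.6. CDX2, the factor that sets intestinal identity, was found in 58.8% of FGB-positive cells at 126 against 20.9 CPM (ratio 6.04, 5.52 to 6.60). SI, the brush border sucrase, stood at 106 against 5.14 CPM (ratio 20.6) and the cadherin CDH17 at 185 against 39.4 CPM (ratio 4.69). CDX1 had a ratio of 29.7 in 9.90% of cells, and the brush border fatty acid carrier FABP2 had no UMI. SOX17, which marks definitive and extraembryonic endoderm, stood at 138 against 11.1 CPM (ratio 12.4, 11.1 to 13.9) in 44.9% of cells and had no UMI in WT. It was among the 2 higher genes of 3 compared in the yolk sac and visceral endoderm list, while CUBN and LRP2, the endocytic receptors typical of that tissue, stood at 9.57 against 7.59 and 32.9 against 34.3 CPM.

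Of the genes that gave the population its hepatic-like label, FGB, FGG, AFP and APOA1 were high, whereas SERPINA1 was lower than in other KO cells and ALB and the mature enzymes were close to absent, so the cells are called FGB-positive here. After AFP and FGB, genes with the highest ratios included ANPEP (41.1), AC019117.1 (22.7), LY75 (22), SI (20.6), ANXA13 (18.6), PIEZO2 (17.2), SOSTDC1 (17), MEP1A (16.4), FGG (15.7), HLA-DPB1 (15.1), FGA and CFTR (both 14.4). ANPEP and MEP1A are brush border peptidases, PIEZO2 is a mechanosensitive channel, SOSTDC1 a secreted antagonist of BMP and WNT signalling, HLA-DPB1 a class II antigen chain and CFTR the chloride channel of ducts and gut. Less steep but almost universal were LGALS3 at 1726 against 190 CPM in 99.3% of cells, GPC3, a heparan sulfate proteoglycan of fetal liver, at 1269 against 184 CPM in 94.4%, and the basement membrane chain LAMA1 at 1382 against 299 CPM in 99.0%. With COL2A1 (494 against 78.2 CPM) these gave 3 higher and no lower genes among 12 matrix genes compared, whose median log2 ratio was 1.05.

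The 203 lower genes included all 13 endocrine genes compared. The 10 lowest ratios, all between 0.026 and 0.035, belonged to AL138694.1, LINC02197, PAUPAR, ST18, BAALC, SLC8A1, LINC01811, CADPS, UNC80 and RUNX1T1. CADPS, which primes dense-core vesicles for release, stood at 21 against 619 CPM. The 13 endocrine genes had a median log2 ratio of -4.13. Yet 8 of them (CHGA, CHGB, INS, GCG, SCG5, PCSK2, FEV and CRYBA2) had ratios of 1.01 to 3.38 against the KO cells low in CHGA that are described next. Only those other cells were gated on CHGA. The FGB-positive side kept its 39 cells with at least 10 CHGA UMIs, so these ratios of endocrine genes are not between sets gated alike. DLK1 (23.3 against 500 CPM) and NKX6-1 (3.31 against 52.5 CPM), both of the pancreatic progenitor list, were lower too. PDX1, the master factor of pancreas, stood at 20.6 against 48.4 CPM. Against the KO cells low in CHGA, DLK1 had a ratio of 0.034. NKX6-1 had 0.74 (0.51 to 1.09) and PDX1 0.75 there, both too low to be compared.

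Since the rest included 1675 CHGA-rich cells, the FGB-positive cells were also set against the 2219 other KO cells with under 10 CHGA UMIs. Of 4334 genes compared there, 63 (1.45%) were at least 4-fold higher and 23 (0.531%) lower. The 50 leading genes were picked on the same FGB-positive cells and a reference that includes these 2219 cells, so this is no separate check of them. All 50 had a ratio above 1 and 45 of them passed 4-fold. FGG had a ratio of 8.70 (8.25 to 9.18), FGA of 8.06 (7.21 to 9.02) and AFP of 114 (88.8 to 148). TTR changed direction, at 2906 against 259 CPM (ratio 11.2, 10.9 to 11.6), and so did APOA2, the second protein of high-density lipoprotein, at 81.8 against 15.1 CPM. APOA1 at 3.92, APOE at 2.68, GPC3 at 3.86, LAMA1 at 2.55, COL2A1 at 3.48 and CDH17 at 3.26 dropped under 4-fold. HNF4A had a ratio of 1.72 (1.56 to 1.90), and SERPINA1 stayed below 1 at 0.79. ALB stood at 2.59 against 0.12 CPM. Among lists, 2 of 6 plasma protein genes compared (AFP and TTR), 2 of 5 apolipoproteins (APOA2 and APOB), 3 of 7 intestinal genes (CDX2, SI and the fatty acid carrier FABP1), 0 of 12 matrix genes, 2 of 4 yolk sac genes and 0 of 11 hepatic transcription factors were higher.

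**Figure D3:**
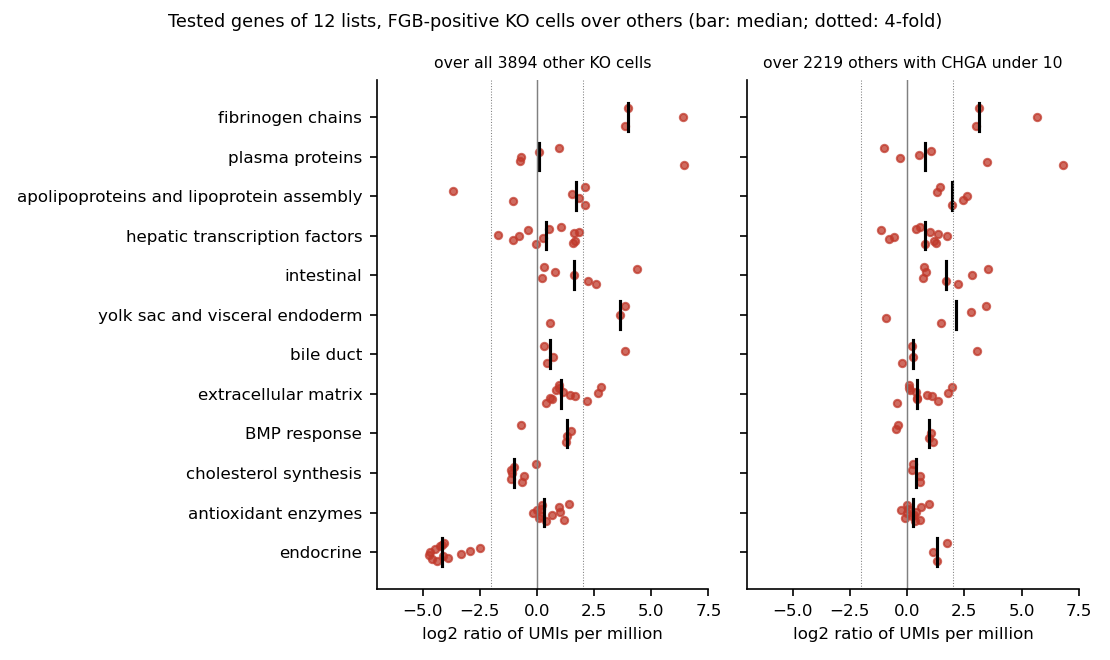
Log2 ratio of CPM (x axis) in FGB-positive KO cells over all other KO cells (left) and over other KO cells with under 10 CHGA UMIs (right), 1 point per gene compared in each of 12 lists, with bars for the list medians and dotted lines at 4-fold. Endocrine genes lie at a median of -4.13 on the left, while fibrinogen chains lie to the right of the 4-fold line in both panels.

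Insulin in the FGB-positive cells lay near the level of other cells that are not endocrine. INS stood at 2215 CPM in FGB-positive cells, at 1247 CPM once the cluster with most doublet calls was left out, at 1002 CPM in other KO cells low in CHGA and at 68599 CPM in CHGA-rich cells. TTR behaved differently, at 2751 CPM without that cluster against 259 CPM in other cells low in CHGA. The part of free RNA in either value was not tested.

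In the lists of stress, BMP and cholesterol genes no gene compared passed 4-fold. Of 12 antioxidant enzymes compared the median log2 ratio was 0.32. The highest ratios were those of the plasma selenium carrier SELENOP (2.65) and the peroxiredoxins PRDX1 (2.29, 2.21 to 2.38) and PRDX6 (2.02). Against other KO cells low in CHGA these genes had 1.92, 1.46 and 1.31. The 4 NRF2 targets, 9 unfolded protein response genes and 7 cholesterol synthesis genes compared had median log2 ratios of 0.21, 0.36 and -1.01. The last was 0.40 over the 4 genes compared with other cells low in CHGA. The 4 BMP response genes compared had a median log2 ratio of 1.30, and the list summed to 1059 against 499 CPM. In this list the inhibitors of differentiation ID1, ID2 and ID3 had ratios of 2.44, 2.49 and 2.83. BMP2, a ligand, had 7.23 at 29.6 CPM, too low to be counted. Against other KO cells low in CHGA, ID1, ID2 and ID3 had 2.18, 1.94 and 2.04, and BMP2 had 4.89.

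Markers of blood, endothelium and surface ectoderm were low, whereas part of the mesenchymal list was not. The 10 blood and endothelial genes summed to 2.01 CPM and HBB, CD14 and KDR were among those at 0. The 8 AP-2 and surface ectoderm genes were all too low to compare in either set. The 10 mesenchymal genes summed to 433 against 230 CPM. Of these, the intermediate filament VIM stood at 322 CPM in 48.0% of FGB-positive cells (ratio 3.51) and the growth factor receptor PDGFRA at 85.8 CPM in 36.9% (ratio 3.74), for a median log2 ratio of 1.86 over the 2 compared, whereas COL3A1 and DCN stood at 5.83 and 4.46 CPM, below the other KO cells. All 12 proliferation genes were too low, with TOP2A in 10.3% of FGB-positive and 8.22% of other KO cells.

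Cells chosen by other genes overlapped the population unevenly. Of 575 KO cells with at least 2 SOX17 UMIs, 486 were FGB-positive, which is 84.5% of the SOX17 set and 28.3% of FGB-positive cells. The 89 SOX17 cells that were not FGB-positive carried several of the same genes. GPC3 stood at 1456, LAMA1 at 1245, APOA1 at 1699, APOE at 1985 and CDX2 at 121 CPM, and LGALS3 lower at 636 CPM. They carried fibrinogen too, with FGG at 447 CPM in 77.5% of cells and FGA at 64.2 CPM in 37.1%. FGB stood there at 124 CPM, with a UMI in 73.0%, and AFP at 6.42 CPM. Of 927 cells with CDX2 and CDH17, 678 were FGB-positive (73.1% and 39.5%). The other 249 had FGG at 265, FGA at 51.6, APOA1 at 1075, LGALS3 at 667 and AFP at 12.5 CPM. Nearly all cells with at least 3 AFP UMIs were included, 289 of 300 (96.3% and 16.8%). PDX1 cells were mostly elsewhere, with 226 of 1304 FGB-positive (17.3% and 13.2%), as were CHGA-rich cells, with 39 of 1714 (2.28% and 2.27%). Since shares depend on depth, cells were also thinned to 3000 UMIs. FGG was then found in 73.3% of FGB-positive, 8.4% of other KO and 0.8% of WT cells, against unthinned 84.5% and 13.2% in KO. AFP was found in 20.0%, 0.9% and 0.1%, and SOX17 in 26.0%, 2.4% and 0.0%.

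The population was not uniform. KO cells were clustered without FGB into 20 groups, numbered by their count of FGB-positive cells, and 5 groups with a majority of FGB-positive cells held 1559 of them (90.8%). Groups were not given cell type names, because markers of more than 1 type came together in each of these 5. Clusters cannot test the genes that built them, so their values are a description.

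Cluster 1 held 480 FGB-positive cells of 567 and was led by CPA6, CST1, RSPO3 and OSR2. SOX17 stood there at 269 CPM, GPC3 at 2030 and CST1, a secreted cystatin, at 1066, with AFP at 15.2 and SERPINA1 at 6.65 CPM. Cluster 4, with 118 of 141 cells, shared SOX17 (287 CPM) and CST1 (738 CPM) and added the mitotic genes TOP2A at 464 and MKI67 at 228 CPM. These were thus SOX17-rich cells that carried fibrinogen (FGB 1004 and 954 CPM, FGG 728 and 733 CPM) almost without AFP.

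Cluster 2, with 440 of 453 cells, was led by RBP4 and AFP. Among the 5 main clusters it had the highest levels of these secreted genes, with AFP at 1381, RBP4 at 485, TTR at 7764, FGB at 2747, FGG at 1459, FGA at 402 and APOB at 151 CPM. Elsewhere in the library TTR reached 41694 CPM and SERPINA1 832 CPM in a cluster. Of 10 hepatic markers, 6 reached 100 CPM there with a level 2 or more times that of the other cells. Intestinal genes were there as well, with SI at 238, CDX2 at 148 and ANPEP at 232 CPM, and ALB stood at 7.94 CPM. This cluster alone held 76.6% of the AFP UMIs of all KO cells.

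Cluster 3, with 414 of 550 cells, lacked SOX17 (3.06 CPM) and was led by SPRR2F, EPHA7 and FER1L6. AFP stood at 280 CPM, AGR2, a secretory pathway isomerase of mucous epithelia, at 1410, SERPINA1 at 166 and PDX1 at 52.3 CPM. Cluster 5 was mixed, with 107 of 210 cells, SULT1E1, LAMA3 and SHH among its leading genes, and 12 doublet calls. A further 79 FGB-positive cells lay in cluster 6 and 33 in cluster 7. Cluster 8 held 22 of them among 57 cells, 40 of which Scrublet called doublets. CDX2 was spread over all 5 main clusters, between 99.4 and 148 CPM, and so was APOA1, between 1414 and 2542 CPM.

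**Figure D4:**
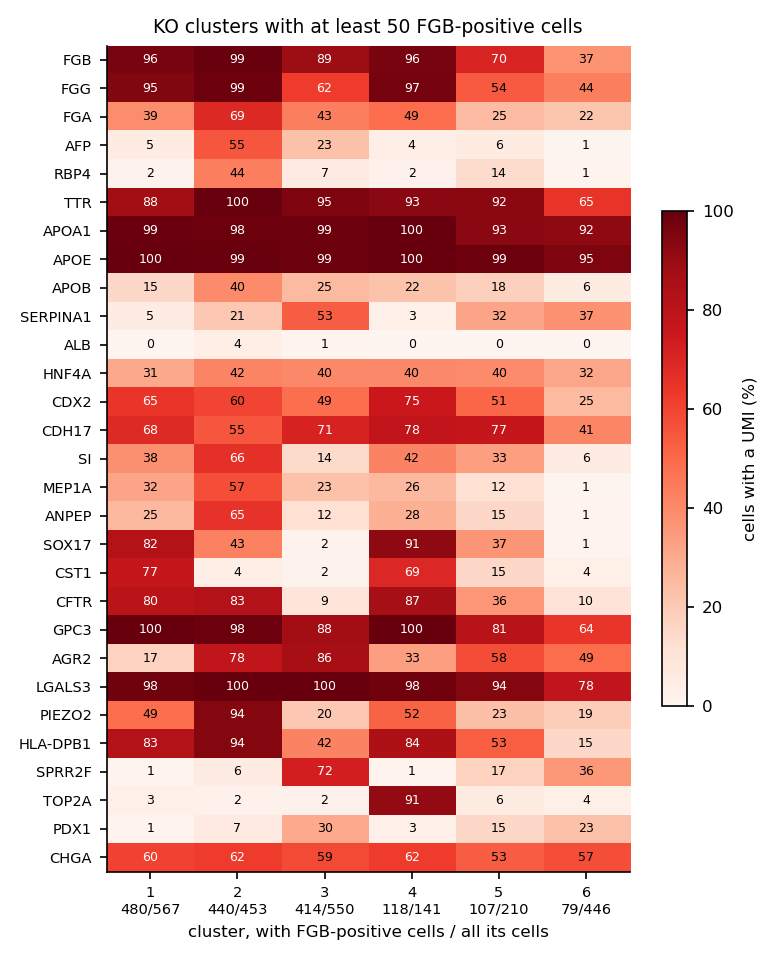
Share of all cells with a UMI (colour and printed whole percent) for 29 genes (rows) in the 6 KO clusters with at least 50 FGB-positive cells (columns, with FGB-positive cells over all cells of the cluster). AFP and RBP4 peak in cluster 2, SOX17 and CST1 in clusters 1 and 4, SPRR2F in cluster 3, and CDX2 and CDH17 are spread over clusters 1 to 5.

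Genes were also counted cell by cell in the same cells that built the clusters, so this is a description and not a separate check. AFP was the most uneven gene examined, with 425 FGB-positive cells carrying it, a maximum of 206 UMIs, and 87.3% of its UMIs in the 171 cells that carried most. FGG had a median of 5 UMIs and APOA1 of 12. In 1713 FGB-positive cells thinned to 3000 UMIs, SOX17 was found in 13.1% of 343 cells with AFP (9.73 to 17.2%) and in 29.2% of 1370 without (26.8 to 31.7%). RBP4 went with AFP, at 38.8% against 3.87%, and so did FGA, at 51.3% against 23.9%. CDX2 did not separate, at 32.7% with AFP (27.7 to 37.9%) and 30.2% without (27.8 to 32.7%). SOX17 went with CST1 (44.5% of cells with SOX17 against 14.7% without) and apart from AGR2 (29.7% against 61.0%). The 1717 cells were chosen on FGB and share 1 library and its depth. Across them, Spearman's rho with FGB CPM was 0.46 for LGALS3, 0.40 for AFP, 0.38 for TTR, 0.33 for FGG and 0.25 for FGA. It was -0.14 for SOX17 and -0.28 for CST1. FGG, the partner chain, had a lower rho with FGB than LGALS3 had.

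At day 8 of the β-cell protocol no cell met the FGB threshold. FGB had 17 UMIs in 15 of 1709 WT cells (5.89 CPM, 3.43 to 9.43) and 12 UMIs in 12 of 1849 KO cells (4.53 CPM, 2.34 to 7.92). The 0 cells with 3 UMIs allow a share of up to 0.176% in WT and 0.162% in KO, at medians of only 1077 and 872 UMIs per cell, so a population of shallow FGB cells would not have been detectable by this rule. AFP stood at 15.2 and 17 CPM and APOA1 at 24.6 and 20.0 CPM, with overlapping intervals. SOX17 was higher in the KO library, at 13.6 (9.53 to 18.8) against 3.81 CPM (1.90 to 6.82), and GPC3 stood at 1251 against 845 CPM. These are single libraries, and GPX2 had 4 UMIs in WT and 1 in KO.

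Bulk RNA-seq allowed tests in libraries that the rule did not use. Fewer cells of a type and less RNA per cell cannot be told apart in such samples. The labels do not say whether libraries of a group came from separate cultures, so p-values measure the spread between these libraries. At day 6 the 4 libraries held 7315509 to 9725172 counts, and GPX2 stood at 3.85 and 5.62 CPM in KO and at 17.7 and 7.5 CPM in WT (log2 fold change -1.42, SE 0.39, edgeR adjusted p = 0.229).

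FGB at day 6 stood at 271 and 891 CPM in the KO libraries and at 166 and 415 CPM in WT. The groups overlapped (log2 fold change 1.00, SE 0.52, edgeR adjusted p = 0.61), and the value was -0.10 without KO replicate 2. AFP stood at 100 and 271 CPM in KO and 48.3 and 57.8 CPM in WT, with no overlap but short of the threshold (1.81, SE 0.38, edgeR adjusted p = 0.113). APOA1 passed it, at 1290 and 1472 CPM in KO against 761 and 738 CPM in WT (0.88, SE 0.08, edgeR adjusted p = 0.00528). SERPINA1 stood at 10.5 and 30.2 CPM against 10.1 and 33.4 CPM, with full overlap.

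Of the 50 genes with the highest ratios in FGB-positive cells, 39 could be tested at day 6. CDX2 was among 2 called higher in KO and none was called lower, against 0.253% of 14633 genes called higher and 0.13% lower. CDX2 stood at 15.9 and 24.9 CPM in KO against 6.92 and 4.22 CPM in WT (log2 fold change 1.86, SE 0.29, edgeR adjusted p = 0.0457). SOX17 did not pass, at 63.9 and 53.8 CPM against 40.0 and 18.1 CPM (1.00, edgeR adjusted p = 0.227). Of the 39 genes 32 had a positive and 7 a negative log2 fold change, with a median of 0.32 against -0.01 over all genes tested. Both KO libraries lay above both WT libraries for 15 of the 39 and below for 2. The share of all tested genes placed in this way was not counted, so these counts have no background. The count called higher depended on single libraries: it was 13 without KO replicate 1, 5 without KO replicate 2, 13 without WT replicate 1 and 9 without WT replicate 2, where the lone library of a group is taken to vary like the other group, and CDX2 was among the calls each time.

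Among the other lists at day 6, HNF4A (log2 fold change 0.66) was called higher and HHEX, an early factor of the liver and pancreas bud, lower (-1.19), of 19 hepatic factors tested. CYP2E1 (2.42) and ASS1 (0.66) were called higher of 11 mature hepatocyte genes, and 3 of 8 yolk sac genes, LRP2 (1.05) and DAB2 (0.68) among them. Others called higher were the AP-2 factor TFAP2C (1.69) and the ligand BMP6 (1.35). None of the 3 fibrinogen chains, 12 plasma proteins or 12 coagulation genes tested was called in either direction. All 3 chains and AFP were called higher without the filter on low counts, where 355 of 29093 genes were called higher. With 1 library left out, log2 fold changes ranged from -0.10 to 1.82 for FGB and 0.24 to 1.38 for FGG. They ranged from 0.016 to 0.96 for FGA and from 0.92 to 2.35 for AFP.

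At day 8 of spontaneous differentiation fibrinogen was expressed in both genotypes. The 8 libraries held 4234408 to 8617728 counts, and GPX2 stood at 25.9 and 24.4 CPM in KO and at 99.8 and 115 CPM in WT (log2 fold change -2.07, SE 0.18, edgeR adjusted p = 0.104). FGB stood at 2800 and 6188 CPM in KO and at 3414 and 4779 CPM in WT, so that the WT libraries lay between the KO libraries (0.17, edgeR adjusted p = 1.00). FGG stood at 196 and 515 CPM in KO against 204 and 274 CPM in WT. AFP stood at 555 and 3991 CPM in KO and at 508 and 3149 CPM in WT, a wider spread within genotype than between. APOA1 stood at 4515 and 4588 CPM against 3378 and 3896 CPM, without overlap (0.35, unadjusted p = 0.033 by edgeR) but not called after adjustment.

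Of 44 leading genes tested at day 8 none was called in either direction by edgeR, and none had an unadjusted p under 0.05 by edgeR or DESeq2. The background was likewise 0% of 14470 genes called by edgeR, while DESeq2 called 2 lower. Of the 44 log2 fold changes 22 were positive and 22 negative, with a median of -0.01. Both KO libraries lay above both WT libraries for 3 genes and below for 2, and here too the share over all genes was not counted.

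**Figure D5:**
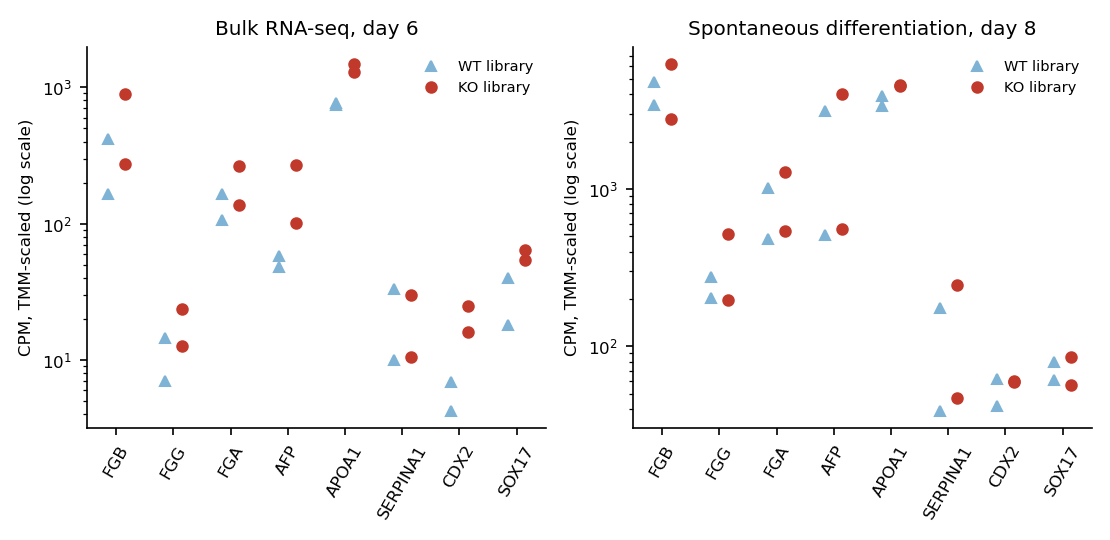
TMM-scaled CPM (y axis, log scale) of 8 genes in each WT (blue triangles) and KO (red circles) bulk library at day 6 (left, 2 libraries a genotype) and day 8 of spontaneous differentiation (right, 2 libraries a genotype). At day 6 the KO points of AFP, APOA1, CDX2 and SOX17 lie above both WT points, and at day 8 those of FGB, FGG, FGA, AFP and SERPINA1 interleave with WT.

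ATAC-seq peaks, which mark accessible chromatin, were listed over all 3 fibrinogen promoters in both genotypes at day 8 of spontaneous differentiation. The authors called ATAC-seq peaks on pooled libraries, 222750 in WT and 202374 in KO, so genotypes cannot be tested. A weak peak covered the FGB start in WT (chr4:154562701-154563009, fold 1.96 over background, −log10 q 1.63) and in KO (chr4:154562699-154562994, fold 2.19, −log10 q 2.47). FGA had peaks of fold 3.86 in WT and 4.28 in KO, and FGG of 2.90 and 3.53. No peak was listed over the AFP promoter in either genotype. Of the 32 leading genes with a promoter, 28 (87.5%) had a peak in WT and the same 28 in KO. Of all genes with a promoter, 64.8% in WT and 64.2% in KO had one. Leading genes had passed a minimum level in day 21 cells, which was not asked of all genes, so these shares are not of like sets.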

How the data were processed

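Day 21 matrices held whole UMI counts per gene and barcode, deposited by the authors from Cell Ranger 7.1.0 without normalization. The WT table lists called cells and the KO table every barcode. The day 8 single-cell matrices held expected counts as deposited by the authors, with fractions for UMIs shared between genes, rounded here. Bulk files held whole counts, which the authors obtained with fastp, STAR and featureCounts (version 2.0.1 and Ensembl release 108 at day 8, with no strand setting), so antisense partners cannot be separated. The 1 day 6 row without values was left out. Peak files gave the fold over background, a ratio, and the −log10 q of each MACS2 broad peak, as deposited by the authors on hg38 for merged libraries. Gene models and promoters of the reference used here are GRCh38.p14, the same chromosome sequences.

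Levels are CPM of UMIs summed over cells. Their intervals are exact Poisson, those of ratios exact conditional and those of shares Clopper-Pearson, at 95%. The kept cells match the number in the study's methods for WT and exceed it by a single cell for KO. Cells were clustered with scanpy 1.11.5 (2000 variable genes without FGB, 30 components, 20 neighbours, Leiden resolution 1). The bulk test was that of edgeR 4.0.16 under R 4.3.3 (scaling by TMM, filterByExpr, quasi-likelihood F test, Benjamini-Hochberg adjustment over all genes tested, threshold 0.05), the 8 libraries of day 8 fitted together, and with DESeq2 1.42.0 as an alternative. Scripts were tested on simulated data. A promoter counted as having a peak when they shared at least 1 base within a window of 300 bases.

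The genes named were the 5 markers given for the population, the 15 highest and 10 lowest ratios, the genes of 23 lists and, in bulk, the markers, fibrinogen chains and those of the 50 leading genes that were called. A few further leading or cluster genes were named after their values were seen. The members and lists were chosen with earlier results of these data known. G6PC1 and GPX1 had no entry under these symbols. Alternatives were other FGB, gene and mitochondrial limits, thinned cells, removal of Scrublet calls, other comparison cells, cluster resolutions, other bulk scaling and filters, and each bulk library left out. Some genes that the rule would name are not reported here.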

Additional observations from a re-analysis of the deposited data

Results flagged for a closer look

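Of the 41 leading genes of FGB-positive cells measured in bulk on both days, 2 had log2 fold changes of opposite sign at day 6 and at day 8 of spontaneous differentiation, with both KO libraries on one side of both WT libraries on either day. AP001528.1 had a log2 fold change (KO over WT) of -0.38 at day 6 and 0.58 at day 8. COL19A1, a minor basement membrane collagen, had 0.32 at day 6 and -0.58 at day 8. The difference between days was not tested, and neither gene was called on either day. How many of all genes show such a pattern was not counted.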

How the results depend on the processing

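The FGB threshold and the cell limits moved the size of the population, with 1450 to 2042 KO cells and 2 to 17 WT cells across settings. There were 1881 KO cells (33.5%) at 2 FGB UMIs or more, 1450 (25.8%) at 5 or more, 2042 with at least 1000 genes and under 20% mitochondrial UMIs, and 1858 (33.3%), with 17 WT cells, at 1 or more after thinning to 3000 UMIs. Thinning left 52 genes at least 4-fold higher and 89 lower, and setting the cells against other KO cells low in CHGA left 23 lower. In that last comparison 9 genes named as lower had a ratio above 1: APOC3 (3.03), CHGA (2.5), CHGB (1.01), INS (2.21), GCG (3.38), SCG5 (2.56), PCSK2 (2.23), FEV (3.10) and CRYBA2 (2.30). Only the other KO cells were gated on CHGA there, and the FGB-positive side kept 39 cells with at least 10 CHGA UMIs. Every other alternative for day 21, including removal of Scrublet calls and of the doublet-rich cluster (added after the data were seen), kept the direction of each named ratio that was called.

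At day 6 the leading genes called were 15 higher and 1 lower without the filter on low counts, 1 higher among the 25 highest, and 5 to 13 higher and 0 to 2 lower with 1 library left out. Column headings carry a letter at day 6 and a number at day 8 that no label ties to a shared culture. Deviations of samples with the same letter correlated at 0.24, and those with the same number at 0.33 to 0.68. With the letter as a replicate block, tried after the data were seen, 16 leading genes were called higher and 2 lower at day 6, among 515 and 327 of all genes, and FGB, FGG, FGA, AFP and SOX17 joined those higher. With the number as a block at day 8, no leading gene was called in either direction.

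With 1 library left out, the log2 fold change at day 6 ranged from -0.10 to 1.82 for FGB and from -1.04 to 1.02 for SERPINA1. At day 8 it ranged from -0.54 to 0.64 for FGB, -0.28 to 1.15 for FGG, -0.47 to 0.97 for FGA, -1.72 to 2.23 for AFP, -1.19 to 1.98 for SERPINA1, -0.24 to 0.30 for SOX17, -0.011 to 0.52 for CDX2 and -6.31 to 0.88 for CDH17. The cause of these changes was not tested, and 2 libraries a group limit the bulk results.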

Other observations

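Of the 144 ALB UMIs in day 21 KO cells, only 36 were in FGB-positive cells, where no cell had more than 6. Another 85 were in 2 of the 7 KO cells that carried at least 3 AFP UMIs and no FGB. Those 7 cells stood at 40541 CPM of TTR and 35492 CPM of GCG, the transcript of glucagon. The ALB UMIs outside the fibrinogen population thus lay mostly in 2 cells. An ALB UMI was found in 1.57% of FGB-positive and 0.41% of other KO cells. The 7 cells were picked after their values were seen.

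Iron and metal genes were mostly too low to compare in FGB-positive cells, 11 of 13. The ferritin chains FTH1 and FTL, which store iron, stood at 1865 against 1531 and at 3158 against 2768 CPM in FGB-positive and other KO cells. Of the metallothioneins, MT2A stood at 13.4 against 23.9 CPM, and at 141 CPM in WT cells.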
